A study of Saccharomyces cerevisiae with 3 samples.

Results

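Genes for the synthesis of aromatic amino acids were examined in stationary-phase budding yeast (Saccharomyces cerevisiae). They comprised 10 genes chosen by name: ARO3, ARO4, ARO1, ARO2 and ARO7 of the chorismate pathway and TRP2, TRP3, TRP4, TRP1 and TRP5 of the tryptophan branch. Of these, 9 had a named probe set, 1 each, among 5449 genes on the array, and TRP1 was not analysed here. RNA was measured on 3 Affymetrix arrays, 1 per sample: 2 are labelled as cells with RPA12 deleted and 1 as wild-type cells, with no other treatment. RPA12 codes for a subunit of RNA polymerase I, which makes ribosomal RNA. All 3 cultures are described as BY4741, a haploid laboratory strain of mating type a with deletions in HIS3, LEU2, MET15 and URA3, grown in synthetic medium at 30 °C, so by description both groups carry the same marker deletions, none of which lies in the pathway. Of these, MET15 and HIS3 rose by the rule given below, while LEU2 and URA3 did neither. Whether the 2 arrays labelled deletion came from separate cultures is not stated, so the p-values cover no more than the variation between those arrays, which may be technical. The growth protocol entered for the array labelled wild type names the deletion strain, whereas its genotype reads wild type, and the genotype was followed.

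Yeast makes phenylalanine, tyrosine and tryptophan from phosphoenolpyruvate and erythrose 4-phosphate. A common trunk leads to chorismate, from which chorismate mutase opens the branch to phenylalanine and tyrosine, and anthranilate synthase the branch to tryptophan. Many genes of the pathway, like those of histidine and arginine synthesis, are activated by Gcn4, the transcription factor of general amino acid control, and the entry enzymes are also held back by their end products.

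The labels and the arrays did not match at every point. Groups are therefore named by label: a rise is a higher value on the arrays labelled deletion, and if the genotype labels were exchanged, every rise below would be a fall on deletion of RPA12 and every fall a rise. RPA12 itself went against its label: it read 5.74 and 5.79 on the arrays labelled deletion, above its 3.60 on the array labelled wild type (RMA values, the log2 summary of each probe set after background correction and normalization). The position of these probes in the gene is not given, so the value is no check of the label if they fall beyond the deletion. MET17, also called MET15, read 9.43 and 9.36 against 1.56. HIS3 read 9.27 and 9.30 against 6.73, far above background on every array, although it is described as deleted. As for RPA12, the position of the HIS3 probes in the gene is not given, so they may fall beyond the deletion. The other markers described as deleted were dim. LEU2 read 1.75 on both arrays labelled deletion and 1.91 on the array labelled wild type, little above background. URA3 read 1.25 on every array, not above background. LYS2, of lysine synthesis, read 1.42 and 0.97 against 6.08. Of 5 markers of mating type α, 4 rose, and their differences ran from 0.80 to 7.12. Of 5 markers of mating type a, 2 fell and 1 rose (none rose after quantile normalization again or after centring on the tested probe sets), with HMRA1 at 1.25 and 1.09 against 7.41. The 24 probe sets for spiked-in bacterial transcripts were also lower on the arrays labelled deletion, with a median difference of -3.91, as were 18 hybridization controls, at -1.68, and 17 probe sets for yeast ribosomal RNA, at -1.74. The signal of ACT1, the actin gene, fell off from its 3′ to its 5′ probe set by 2.02 and 2.35 on the arrays labelled deletion and by 1.69 on the array labelled wild type. The part of strain, mating type, controls and RNA quality in the results was not tested. The groups differed in several of these markers and controls as well as in label. Strain, mating type, array processing and RNA quality therefore cannot be told apart from the genotype label.

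Transcripts of both the trunk and the tryptophan branch were more abundant on the arrays labelled deletion. A gene is said to have risen or fallen where limma's adjusted p was under 0.05 and the difference, the mean of the 2 arrays labelled deletion less the wild-type value (log2), was at least 2-fold. By this rule 8 of the 9 genes rose and none fell, against 23.8% of all 5498 tested probe sets that rose and 10.2% that fell. By limma's adjusted p alone, with no minimum fold, all 9 were higher and none lower, against 50.4% and 29.7%. The median difference of the 9 genes was 2.17, beside 0.19 over all tested probe sets. Both arrays labelled deletion lay above the array labelled wild type for all 9 genes, as they did for 56% of all tested probe sets. The split of all calls depends on the scaling: 70.0% of them were rises with the deposited values, 56.6% after quantile normalization again, 55.9% after centring on the median of the tested probe sets and 74.5% after centring on the probe sets of another yeast species. All 9 genes read above the background level on every array. That level was 1.42 on each array labelled deletion and 1.84 on the array labelled wild type, and the 5 probe sets for aro1, trp1, trp2, trp3 and trp4 of the other yeast species read 1.09 to 1.52. In whole cultures, a change in every cell and a change in the share of cells that express a gene cannot be told apart.

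**Figure D1:**
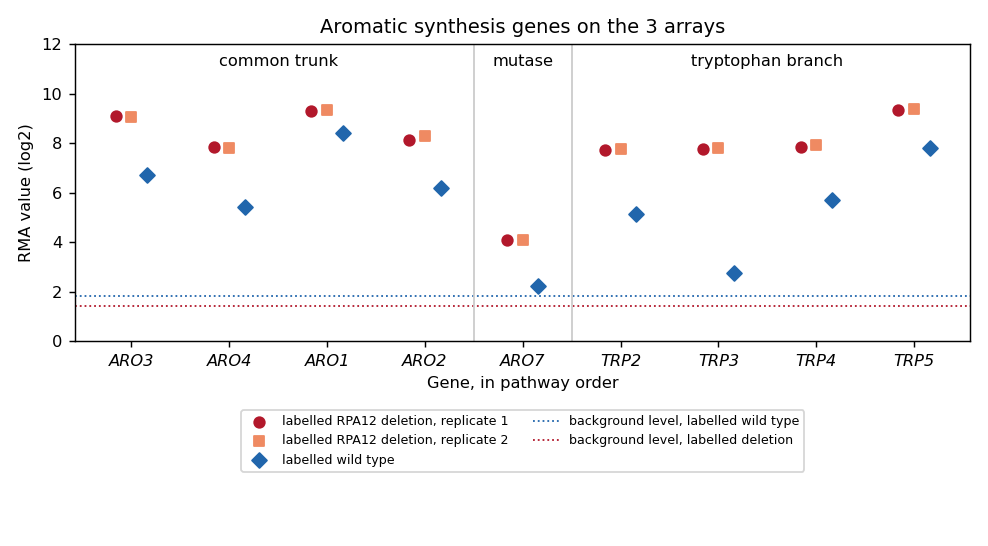
RMA values (log2) of the 9 measured aromatic synthesis genes on each of the 3 arrays, in pathway order, 1 point per array, with the background levels of 1.42 and 1.84 as dotted lines. The 2 arrays labelled deletion lie close together and above the array labelled wild type for every gene, with the widest distance at TRP3.

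The pathway starts with a pair of isozymes of DAHP synthase, which join phosphoenolpyruvate and erythrose 4-phosphate. ARO3 (YDR035W) encodes the isozyme inhibited by phenylalanine and ARO4 (YBR249C) the isozyme inhibited by tyrosine. ARO3 read 9.11 and 9.05 on the arrays labelled deletion and 6.73 on the array labelled wild type, and ARO4 read 7.83 and 7.81 against 5.41. For each gene the arrays labelled deletion sat close together and well above the wild type. ARO3 rose 5.10-fold, a difference of 2.35 (limma adjusted p = 0.00900), and ARO4 rose 5.33-fold, a difference of 2.41 (limma adjusted p = 0.00306). The isozyme genes differed from each other in this difference by 0.06, which is no more than the gap of 0.06 between the arrays labelled deletion for ARO3.

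The middle of the trunk behaved less evenly. ARO1 (YDR127W) encodes the arom protein, a multifunctional enzyme that carries out the consecutive steps between the DAHP synthase product and the substrate of chorismate synthase. ARO1 read 9.30 and 9.33 on the arrays labelled deletion and 8.40 on the array labelled wild type. Its difference of 0.92, or 1.89-fold, passed limma (adjusted p = 0.00976) but was under 2-fold, so it is not counted as a rise. It was 1.03 when the arrays were centred on the probe sets of the other yeast species, which would make it one. ARO2 (YGL148W) encodes chorismate synthase, which completes the trunk. It read 8.13 and 8.28 against 6.19, and rose 4.07-fold (difference 2.02, limma adjusted p = 0.0245). The gap of 0.15 between the arrays labelled deletion was the widest of the 9 genes, and small beside the difference.

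Chorismate mutase, encoded by ARO7 (YPR060C), commits chorismate to phenylalanine and tyrosine, and the enzyme is activated by tryptophan and inhibited by tyrosine. ARO7 read 4.08 on both arrays labelled deletion and 2.24 on the array labelled wild type, the last of these not far above the background level of 1.84. It rose 3.58-fold, a difference of 1.84 (limma adjusted p = 9.15e-05). The deletion values were equal to every deposited digit, as they were for 44.2% of tested probe sets, so this p rests on the spread borrowed from other probe sets. After quantile normalization again the difference was 1.28.

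All 4 measured genes of the tryptophan branch rose, with TRP3 far ahead of the others. TRP2 (YER090W) and TRP3 (YKL211C) encode the subunits of anthranilate synthase, which turns chorismate into anthranilate using glutamine; the TRP3 protein also carries indole-3-glycerol-phosphate synthase, a later step of the same branch. TRP2 read 7.72 and 7.76 on the arrays labelled deletion and 5.16 on the array labelled wild type. It rose 5.99-fold, a difference of 2.58 (limma adjusted p = 0.00374). TRP3 read 7.77 and 7.79 against 2.76, so that its wild-type value stood above the background level of 1.84 but low in that array. It rose 32.3-fold, a difference of 5.01 (limma adjusted p = 0.00107), which ranked 7 among the 5498 probe sets. Genes for subunits of the same enzyme thus differed by 2.43 in their change, against at most 0.03 between the arrays labelled deletion for either gene. The array labelled wild type has no replicate, so this distance has no test.

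TRP4 (YDR354W) encodes anthranilate phosphoribosyltransferase, which adds a ribose phosphate from PRPP to anthranilate. It read 7.86 and 7.92 on the arrays labelled deletion and 5.72 on the array labelled wild type, and rose 4.49-fold (difference 2.17, limma adjusted p = 0.00857). TRP5 (YGL026C) encodes tryptophan synthase, which completes the branch with serine. It read 9.33 and 9.36 against 7.82, and rose 2.88-fold (difference 1.53, limma adjusted p = 0.00601). Without TRP3, the branch had a median difference of 2.17, beside 2.19 for the 4 genes of the trunk.

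**Figure D2:**
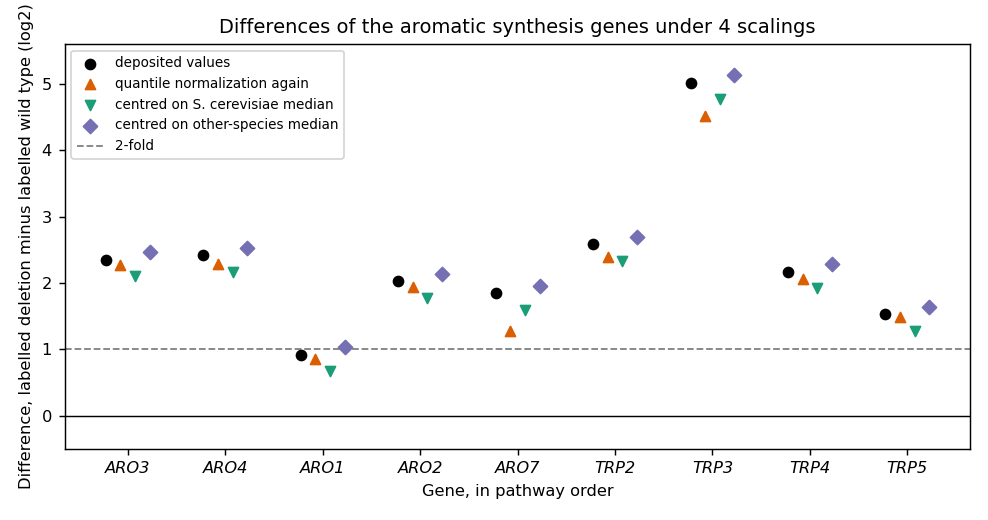
Difference between the mean of the 2 arrays labelled deletion and the array labelled wild type (log2) for each gene, with the deposited values and 3 other scalings, 1 symbol per scaling and a dashed line at 2-fold. TRP3 stays at 4.52 or more under each of the scalings drawn, and ARO1 lies beside the 2-fold line, from 0.67 to 1.03.

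In order of difference, the genes ran TRP3, TRP2, ARO4, ARO3, TRP4, ARO2, ARO7, TRP5 and ARO1. The step between ARO4 and ARO3 (0.06) and that between TRP4 and ARO2 (0.14) were no larger than the gap between the arrays labelled deletion for one gene of the pair. The other steps were larger than that gap, but each step also holds the error of the single array labelled wild type, which was not measured, so the order has no test. After quantile normalization again ARO7, at 1.28, came after TRP5, at 1.49. The difference did not follow the order of the reactions: large and small differences stood side by side in the trunk and in the branch.

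The ranks of these values within each array were higher on the arrays labelled deletion for all 9 genes, by very unequal amounts. The shift was largest for TRP3, then TRP2 and ARO4, and smallest for ARO1, the same places as in the order of the differences. Between these the orders were not the same: ARO3 shifted less than TRP4 and ARO2, and ARO7 less than TRP5. TRP3 stood at percentile 87.2 and 87.5 of the tested probe sets on the arrays labelled deletion and at percentile 14.0 on the array labelled wild type. TRP2 moved from percentile 42.5 on the array labelled wild type to 86.7 and 87.1, and ARO4 from 47.7 to 87.9 and 87.6. ARO1 was already at percentile 92.7 on the array labelled wild type and stood at 96.8 and 96.9 on the arrays labelled deletion. TRP5 moved from 88.2 to 96.9 and 97.0. ARO7 remained among the dim probe sets, at percentile 17.7 on each array labelled deletion and 10.1 on the array labelled wild type. A rank also holds the binding strength of the probes, so only the shift of each gene between arrays is read here.

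**Figure D3:**
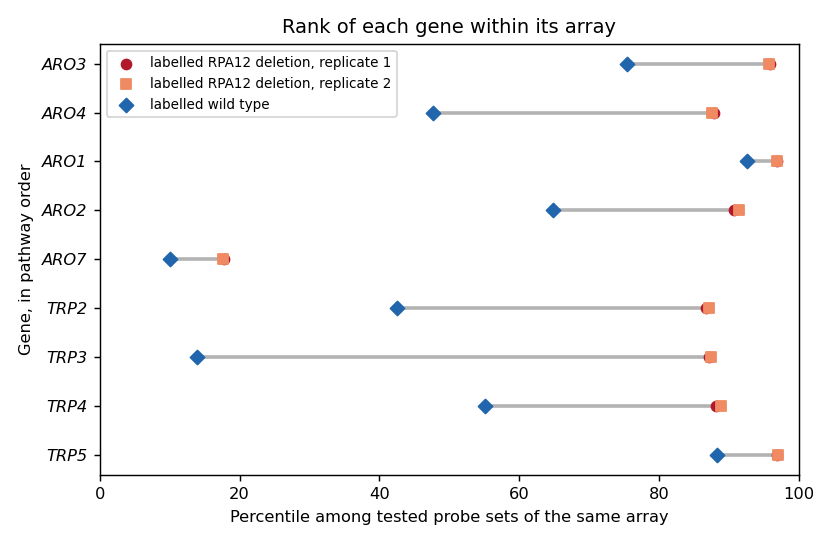
Percentile of each gene's value among the 5498 tested probe sets of the same array, 1 point per array, with a grey bar from the array labelled wild type to the mean of the arrays labelled deletion. The bar is longest for TRP3, from percentile 14.0 on the array labelled wild type against 87.2 on the lower array labelled deletion, and short for ARO1, ARO7 and TRP5.

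The remaining genes for phenylalanine and tyrosine rose too, except the aminotransferase of aromatic breakdown. PHA2, prephenate dehydratase of the phenylalanine arm, read 4.64 on both arrays labelled deletion and 1.51 on the array labelled wild type, where it was not above background, and was at least 6.97-fold higher (limma adjusted p = 9.15e-05). TYR1, prephenate dehydrogenase of the tyrosine arm, read 7.57 on both arrays labelled deletion against 5.61, and rose 3.89-fold (limma adjusted p = 5.50e-04). ARO8, the aromatic aminotransferase used chiefly in synthesis, rose 2.88-fold from 6.60 to 8.12 and 8.13. ARO9, its counterpart induced by aromatic amino acids and used in their breakdown, read 4.64 on both arrays labelled deletion against 5.81 and fell 2.25-fold.

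Of the 9 measured genes for breaking down and importing aromatic amino acids, 11.1% rose and 44.4% fell, beside 23.8% and 10.2% of all tested probe sets. ARO10, the decarboxylase that follows ARO9 in the breakdown of aromatic amino acids to fusel alcohols, read 4.57 and 4.84 against 7.15 and fell 5.45-fold (limma adjusted p = 0.0364). ARO80, the transcription factor that activates ARO9 and ARO10, read 5.25 on both arrays labelled deletion and 5.06 on the array labelled wild type, which is 0.20 apart and whose sign turns to -0.10 and -0.05 under other scalings. Among 6 permeases that carry aromatic amino acids, 2 fell and 1 rose (median difference -0.56). TAT1, a permease for tyrosine, tryptophan and branched-chain amino acids, fell 10.8-fold, from 7.58 to 4.14 on both arrays labelled deletion. GAP1, the general amino acid permease, fell 9.65-fold, from 8.17 to 4.75 and 5.05. BAP3 rose 3.57-fold, from 6.48 to 8.30 and 8.33. TAT2, the high-affinity tryptophan permease, read 5.86 on both arrays labelled deletion against 6.01, and BAP2 read 8.69 on both against 8.66, each under 2-fold. AGP1, a broad permease, had a difference of -0.98, which passed 2-fold at -1.04 and -1.23 after quantile normalization again and after centring on the tested probe sets.

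Of the routes that draw on chorismate and tryptophan for other products, each held a rise, and only the route to NAD held a fall with the deposited values. In the route to NAD the shares were near those of all tested probe sets. For p-aminobenzoate, the folate precursor, ABZ2 (aminodeoxychorismate lyase) rose 6.26-fold, from 2.33 to 4.96 and 5.00, while ABZ1 (aminodeoxychorismate synthase) read 4.73 on both arrays labelled deletion against 5.49, a difference of -0.76 that reached -1.08 and -1.01 after quantile normalization again and after centring on the tested probe sets. Of the 7 genes from tryptophan to NAD, 2 rose (28.6%), 1 fell (14.3%) and 4 did neither (median difference 0.00, beside 0.19 over all tested probe sets). BNA2, the dioxygenase that opens this route, read 5.35 and 5.58 against 7.29 and fell 3.56-fold (limma adjusted p = 0.0429). BNA1, a later dioxygenase, rose 5.18-fold, from 7.54 to 9.91 and 9.92, and BNA3, a kynurenine aminotransferase, rose 3.90-fold, from 5.08 to 7.12 and 6.98. BNA4, BNA5, BNA6 and BNA7 had differences of 0.73, -0.41, 0.00 and -0.08.

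**Figure D4:**
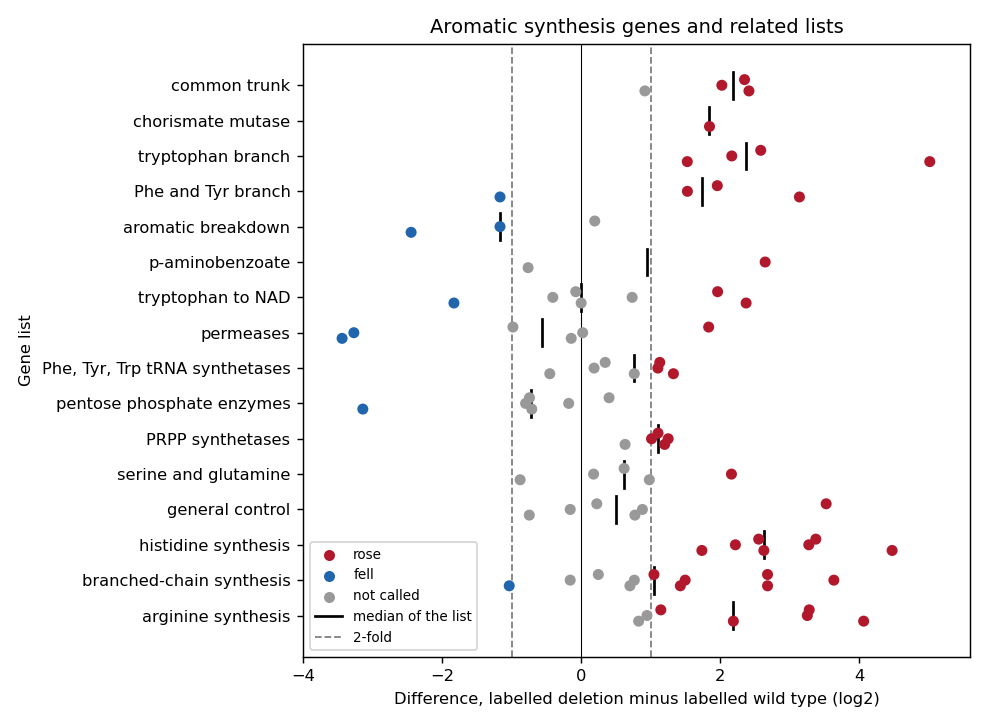
Difference between the arrays labelled deletion and the array labelled wild type (log2) for every measured gene of 16 gene lists, 1 point per gene, red where it rose, blue where it fell and grey where it did neither, with the median of each list as a black bar and dashed lines at 2-fold. The synthesis lists lie to the right, while TAT1, GAP1, TKL2, ARO10 and BNA2 are the points furthest to the left.

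Of 6 measured genes of general amino acid control, only PCL5 rose (16.7%) and none fell, beside 23.8% and 10.2% of all tested probe sets. GCN4, whose protein is controlled largely at translation, read 9.51 on both arrays labelled deletion against 9.67, a difference of -0.16. PCL5, a cyclin that promotes breakdown of the Gcn4 protein and is itself a target of Gcn4, read 8.75 and 8.58 against 5.14 and rose 11.5-fold (limma adjusted p = 0.0158). GCN2, the kinase that senses uncharged tRNA, differed by -0.75, its activators GCN1 and GCN20 by 0.22 and 0.77, and GCN3, a subunit of a translation initiation factor, by 0.88.

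Other pathways of amino acid synthesis under general control also held a larger share of rises than the 23.8% of all tested probe sets. No test was made between the pathways. All 7 histidine genes rose (median difference 2.63), led by HIS2 at 22.2-fold. They include HIS3, a marker described as deleted in all 3 cultures, whose difference was 2.55. Of 7 measured arginine genes 5 rose and none fell (median 2.19), led by ARG7 at 16.7-fold. The 11 branched-chain genes include LEU2, a marker described as deleted, which read 1.75 on both arrays labelled deletion against 1.91, little above background. Of these 11 genes, 6 rose (54.5%) and 1 fell (median 1.05). That fall is 9.09% of the list, near the 10.2% of all tested probe sets that fell. ILV3, dihydroxyacid dehydratase, and LEU9, an isopropylmalate synthase, each rose 6.41-fold. BAT1, the mitochondrial branched-chain aminotransferase, rose 12.4-fold, while BAT2, the cytosolic one, fell 2.05-fold, a call lost at -0.92 after centring on the other species. The BAT2 difference was also under 2-fold, at -0.97, with the first array labelled deletion left out. The median of 2.17 for the 9 aromatic genes was above that of the branched-chain genes and just below that of the arginine genes. Its order against the arginine genes turned after quantile normalization again, at 2.06 against 2.02.

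Of 18 genes that lie next to the aromatic genes on their chromosomes, 16 had a named probe set. Of these, 4 rose, 1 fell and 11 did neither (median difference 0.30), beside 23.8% and 10.2% of all tested probe sets. TRP3, the gene with the largest difference in the pathway, lies between SAC1, a phosphoinositide phosphatase, which read 5.89 and 5.83 on the arrays labelled deletion against 5.89, and UBA1, the ubiquitin-activating enzyme, at 6.78 and 6.76 against 7.47. Neither of these was 2-fold apart. ARO4 lies beside HIS7, of histidine synthesis, which rose 9.68-fold from 4.65 to 7.89 and 7.95, and beside SPO23, which read 3.31 and 3.19 on the arrays labelled deletion and in the wild type, at 1.60, was not above background. TRP2 lies beside MET6, methionine synthase, which rose 2.20-fold from 6.78 to 7.95 and 7.89, and was at 0.89, under 2-fold, after centring on the tested probe sets. ARO7 lies beside YMC1, a mitochondrial carrier, which rose 4.68-fold. ARO3 lies beside EHD3, of valine breakdown, which fell 3.26-fold, from 6.64 to 5.00 and 4.88, while ARO3 rose. The neighbours of ARO1, ARO2, TRP4 and TRP5 that were measured were all under 2-fold.

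**Figure D5:**
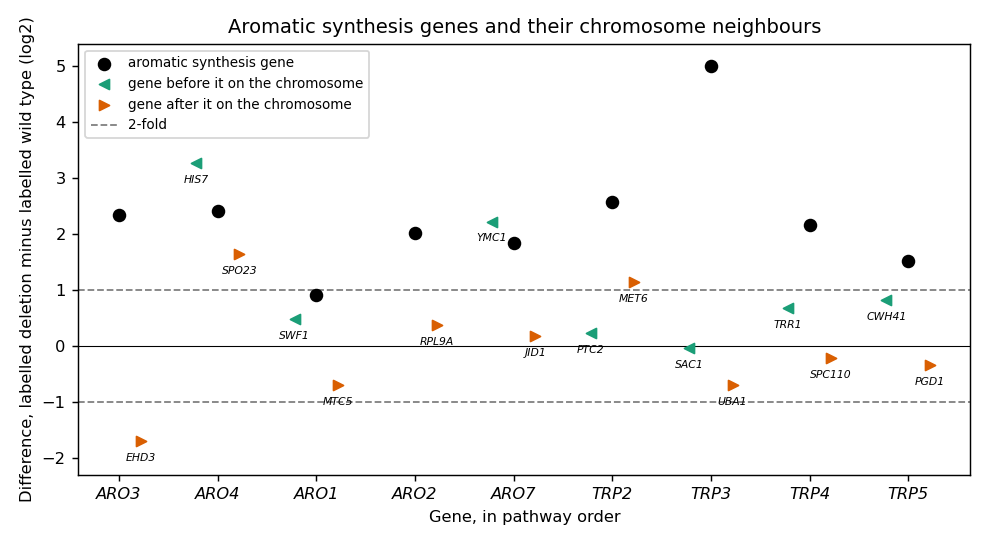
Difference between the arrays labelled deletion and the array labelled wild type (log2) for each aromatic gene (black) and for the measured gene before and after it on the chromosome (triangles), with dashed lines at 2-fold. TRP3 at 5.01 stands between SAC1 at -0.03 and UBA1 at -0.70, while ARO4 and ARO7 each have a neighbour that rose further, HIS7 at 3.27 and YMC1 at 2.23.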

How the data were processed

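The authors deposited log2 values, 1 per probe set; the submitters' processing notes name RMA and Affymetrix Expression Console, with no version. Per the labels, 6 µg of total RNA went into each array. RMA brings the probes of all arrays to one distribution, which would hide a shift of most transcripts. The deposited probe-set values still differed in distribution. Their median over the tested probe sets was 5.74 on each array labelled deletion and 5.49 on the array labelled wild type. The values were used as they are. Of 10928 probe sets, 5498 carry 1 S. cerevisiae gene symbol in the platform annotation and were tested, 1746 name genes of another yeast species, 1 names several genes, and 3470 plus 213 array controls have no name here. The RefSeq table of assembly R64 gave current names, systematic names and neighbouring genes. The background level is the value below which 95% of the other-species probe sets of an array lie; a gene that does not exceed it on any array of 1 group gets a fold of "at least", with the dim value raised to that level.

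The test was limma 3.58.1 (R 4.3.3), lmFit and eBayes, two-sided, Benjamini-Hochberg adjusted over all 5498 probe sets, with 1 residual degree of freedom; the lone array labelled wild type is assumed to vary like the others. Since tied values make limma's p too small, calls also need 2-fold. An exact permutation test over 3 arrays cannot give a p below 0.333. The number of arrays, not a read depth, limits the precision. The script was tested on simulated data. By the naming rule all pathway genes are named, and their chromosome neighbours, genes of lists of up to 7, and from longer lists the 4 largest differences and the called genes may be named; not all of these are. The genes and lists were chosen with earlier results of these data known. The alternatives were other scalings, a filter, a floor, a trend in limma's variance, averaged probe sets, left-out arrays and other call rules.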

Additional observations from a re-analysis of the deposited data

How the results depend on the processing

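The count of 8 rises and no fall among the 9 aromatic genes was the same under each alternative except 3: it became 9 after centring on the other-species probe sets, by limma's adjusted p alone, and with a 1.5-fold minimum, in each case by the addition of ARO1. Leaving out an array labelled deletion gives values with no test, since no residual degree of freedom is left: the median difference of the 9 genes was 2.14 to 2.19, and TRP3 was at 5.00 to 5.03. That median was 2.06 after quantile normalization again, 1.92 after centring on the tested probe sets and 2.28 after centring on the other-species probe sets. Over all tested probe sets, 1310 rose and 562 fell; by limma's adjusted p alone 2773 were higher and 1634 lower, and with a 1.5-fold minimum 1926 were higher and 886 lower. Other scalings moved the median of all differences by -0.15 (quantile normalization again), -0.25 (centring on the tested probe sets) and 0.11 (centring on the other species). The sign of some small, uncalled differences turned. After quantile normalization again these were ARO80 (-0.10), BAP2 (-0.065), LEU2 (0.012), MSF1 (-0.48), MSY1 (-0.30) and JID1 (-0.084). After centring on the tested probe sets they were ARO80 (-0.055), BAP2 (-0.23), GCN1 (-0.025), LEU4 (-0.00297), MSF1 (-0.064), SER1 (-0.071), JID1 (-0.064) and PTC2 (-0.017), and after centring on the other species BNA7 (0.034) and SAC1 (0.084). BAT2 was at -0.92 after the last of these, ILV1 at 0.94 and 0.80 and ARG1 at 0.90 after the others, each under 2-fold. The cause was not tested. No paired analysis was possible because the array labelled wild type carries no replicate number and has no partner for the second array labelled deletion.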

Other observations

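Supply of the precursors was mixed. Of 6 pentose phosphate pathway genes, which provide erythrose 4-phosphate, none rose and 1 fell (median difference -0.73), beside 23.8% and 10.2% of all tested probe sets, and RPE1 also fell, at -1.05, after centring on the tested probe sets. TKL2, the minor transketolase, fell 8.82-fold, from 8.68 to 5.55 and 5.52. TKL1, the main transketolase, read 7.71 on both arrays labelled deletion against 7.31. Of 5 genes for PRPP synthetase, whose product is used by the TRP4 enzyme, 80% rose and none fell, beside the same 23.8% and 10.2%. PRS2, PRS3, PRS4 and PRS5 rose by 2.38-fold, 2.30-fold, 2.15-fold and 2.02-fold, and PRS1 had a difference of 0.63. These rises sit near the threshold: PRS2 and PRS3 remained at least 2-fold higher after quantile normalization again, and PRS2 alone after centring on the tested probe sets. Among the 5 genes for serine and glutamine, 20% rose and none fell, beside 23.8% and 10.2% of all tested probe sets. SER2, the last enzyme of serine synthesis from glycolysis, rose 4.48-fold, from 2.92 to 5.08 on both arrays labelled deletion. None of SER1, SER3, SER33 and GLN1 rose or fell, with differences of 0.18, 0.62, 0.98 and -0.88. SER33 passed 2-fold at 1.09 after centring on the other species, and GLN1 fell, at -1.13, after centring on the tested probe sets.

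Of the 7 tRNA synthetases that charge phenylalanine, tyrosine or tryptophan, 3 rose (42.9%) and none fell, beside 23.8% and 10.2% of all tested probe sets. Those that rose were WRS1, the cytosolic enzyme for tryptophan, at 2.51-fold, TYS1, the cytosolic enzyme for tyrosine, at 2.19-fold, and MSW1, the mitochondrial enzyme for tryptophan, at 2.15-fold. After quantile normalization again the differences of WRS1 and MSW1 were 0.88 and 0.32, under 2-fold, and after centring on the tested probe sets those of TYS1 and MSW1 were 0.88 and 0.85. That left 1 of the 7 (14.3%) risen under each of these scalings, when 1008 and 1032 of all 5498 tested probe sets rose. FRS1 and FRS2, the subunits of the cytosolic enzyme for phenylalanine, had differences of 0.76 and -0.45.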
